A study of Mus musculus with 19 samples.

Results

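Fcgr1, Fcgr2b, Fcgr3, Fcgr4, Fcer1g and Fcgrt encode receptors for the constant (Fc) end of antibodies, or a chain of such receptors. They were taken by symbol from the deposited count table, in which each matched 1 of 38887 genes, and all 6 of the 6 passed the filter on low counts. The study compared myeloid-derived suppressor cells (MDSC), myeloid cells that restrain T cell responses, between newborn mice, 7 days of age, and adults of 6 to 8 weeks. RNA was sequenced from cells isolated from the spleen. M-MDSC, the monocyte-like form, were sorted as CD11b+ cells with high Ly6C and no Ly6G, and PMN-MDSC, the neutrophil-like form, were isolated as CD11b+Ly6G+ cells with intermediate Ly6C. There were 5 libraries of newborn M-MDSC, 3 of adult M-MDSC, 5 of newborn PMN-MDSC and 6 of adult PMN-MDSC, in 2 sequencing batches that both held every group. No genotype or treatment separated the groups. Whether replicates were separate animals is not stated in the labels, so each p-value speaks of library-to-library spread, some or all of which may be technical. The protocols name an incubation with an Fc block, an antibody that covers receptors of this family on the cell surface, and the values here are of RNA.

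Fc receptors for IgG let myeloid cells respond to antibody-coated particles and immune complexes. In the mouse, FcγRI (Fcgr1), FcγRIII (Fcgr3) and FcγRIV (Fcgr4) are activating receptors that need the common γ chain (Fcer1g), which carries the activation motif ITAM and is required for their place on the surface. FcγRIIB (Fcgr2b) is the inhibitory receptor, whose ITIM motif recruits phosphatases that oppose the activating signal. FcRn (Fcgrt) works apart from both: it pairs with β2-microglobulin inside the cell, returns IgG from endosomes to the blood and carries maternal IgG to the young.

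In GENCODE M21 on GRCm38, 4 of the 6 genes lay within 275.7 kb of chromosome 1: Fcgr2b at chr1:170958617-170976547 on the minus strand, Fcgr4 at chr1:171018920-171029761 on the plus strand, Fcgr3 at chr1:171051174-171064935 on the minus strand and Fcer1g at chr1:171229572-171234365 on the minus strand. Fcgr1 was at chr3:96282909-96293969 and Fcgrt at chr7:45092990-45103851, both on the minus strand.

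Fcgr2b and Fcgr3, the inhibitory receptor and its closest activating relative, had nearly the same sequence over the part that codes for the antibody-binding side. Their annotated coding sequences, of 1020 and 801 bases, were 84.5% identical, against 59.7 to 65.5% for the other pairs of Fcgr genes. An ungapped block of 513 bases was 96.1% identical, with 20 differing bases. The longest run without a difference had 129 bases, more than the read length of 50 bases, so reads from within it fit both genes. It spans an exon junction, with chr1:170967980-170968081 and chr1:170966674-170966700 in Fcgr2b, and chr1:171057691-171057792 and chr1:171054167-171054193 in Fcgr3. It reads, 5′ to 3′ on the coding strand, with no base in capitals because none differs:
Fcgr2b and Fcgr3 shared run: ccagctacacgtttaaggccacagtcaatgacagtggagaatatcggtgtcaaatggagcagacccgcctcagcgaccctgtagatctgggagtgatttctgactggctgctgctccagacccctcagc
The 90 bases of the block with the most differences show what reads could tell the genes apart by. Capitals mark the 8 differing bases, in Fcgr2b at chr1:170968144-170968233 and in Fcgr3 at chr1:171057855-171057944:
Fcgr2b: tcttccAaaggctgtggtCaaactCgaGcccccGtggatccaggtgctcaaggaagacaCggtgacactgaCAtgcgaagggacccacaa
Fcgr3: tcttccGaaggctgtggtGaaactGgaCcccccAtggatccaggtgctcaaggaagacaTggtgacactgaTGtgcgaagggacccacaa
Over the annotated transcripts, 166 of 1733 windows of 50 bases in Fcgr3 (9.58%) also occurred in Fcgr2b. In Fcgr2b, 395 of 5685 windows (6.95%) occurred in another gene, 166 of them in Fcgr3. The windows of Fcgr1, Fcgr4, Fcer1g and Fcgrt had no such match. The submitters' processing notes name RSEM, which divides shared reads by estimate, so the split of counts between Fcgr2b and Fcgr3 is uncertain for the reads they share. Each result on them is also given for their sum where the sum changes it. The sum adds the changes of both genes, so it cannot show how the shared reads were divided.

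The starts of the 3 activating receptor genes are shown because Fcgr1 was higher and Fcgr4 lower in M-MDSC than in PMN-MDSC at both ages, and Fcgr3 lower in newborns and at the same mean in adults. The sequences are from RefSeq on GRCm38.p6, in which all 6 genes matched. Capitals mark GAGGAA, the core bound by PU.1, a factor of myeloid cells, on the strand opposite to the one printed, and on either strand TTCNNNGAA, the form bound by STAT factors, and the interferon-type repeat, which is GAAA, any 2 bases and GAAA again, the form bound by interferon regulatory factors. The windows are chr3:96293970-96294089 (minus strand), chr1:171059404-171059523 (minus strand) and chr1:171018806-171018919 (plus strand):
Fcgr1: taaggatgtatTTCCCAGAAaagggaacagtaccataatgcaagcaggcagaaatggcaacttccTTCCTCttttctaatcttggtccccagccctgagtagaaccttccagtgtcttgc
Fcgr3: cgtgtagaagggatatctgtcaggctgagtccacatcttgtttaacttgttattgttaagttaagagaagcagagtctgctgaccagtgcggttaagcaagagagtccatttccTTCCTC
Fcgr4: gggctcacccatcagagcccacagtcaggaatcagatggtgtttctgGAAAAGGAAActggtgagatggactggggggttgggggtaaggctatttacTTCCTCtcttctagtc
GAGGAA began 55, 6 and 22 bases before the RefSeq starts of Fcgr1, Fcgr3 and Fcgr4, TTCNNNGAA 109 bases before that of Fcgr1, and the interferon-type repeat 73 bases before that of Fcgr4. The 250 bases before the starts of Fcgr2b, Fcer1g and Fcgrt held none of the 3 patterns. Among 27025 RefSeq promoters, 23.1% held GAGGAA, 7.18% TTCNNNGAA and 3.04% the interferon-type repeat on either strand. The RefSeq start of Fcgr3 lies inside the GENCODE gene, which begins further upstream.

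Total counts were 827744 to 2965896 in the 10 libraries of batch 1 and 14026193 to 45135933 in the 9 of batch 2. Levels are in CPM, counts scaled to a common library size, and 3 counts, the limit that a count of 0 allows, were worth 0.990 to 3.29 CPM in batch 1 and 0.0601 to 0.197 CPM in batch 2. Monocyte genes marked the M-MDSC: Ccr2 averaged 612 CPM in newborn M-MDSC, 552 in adult M-MDSC, 4.93 in newborn PMN-MDSC and 14.4 in adult PMN-MDSC. Ly6g, the gene of the sort marker, had 0 to 1.85 CPM in newborn M-MDSC, 0 to 0.830 in adult M-MDSC, 176 to 245 in newborn PMN-MDSC and 12.1 to 24.7 in adult PMN-MDSC. Newborn M-MDSC replicate 77 was the lowest of its group for all 6 Fc receptor genes, and its correlation with the mean of the other libraries of its group was 0.864, against 0.899 to 0.942 for those libraries. In PMN-MDSC, each of 5 batch 1 libraries (adult 1, 2 and 3, newborn 2 and 3) was closest to 1 batch 2 library (adult 32, 33 and 34, newborn 37 and 38). The correlations of these pairs' deviations from the mean of their group and batch were 0.326 to 0.512, against -0.359 to 0.127 for the 10 other pairs. The pairs are the closest ones by these same values, so the gap between the ranges is not a test. The 2 newborn libraries of batch 1 mirror each other by this centring (0.326 and -0.326 with replicate 37). The 11 PMN-MDSC libraries may thus not be 11 independent samples. Kdm5d, a gene of the Y chromosome, had counts in 5 of 5 newborn M-MDSC and 5 of 5 newborn PMN-MDSC libraries and in 0 of the 9 adult libraries, so age and the sexes of the animals cannot be told apart.

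**Figure D1:**
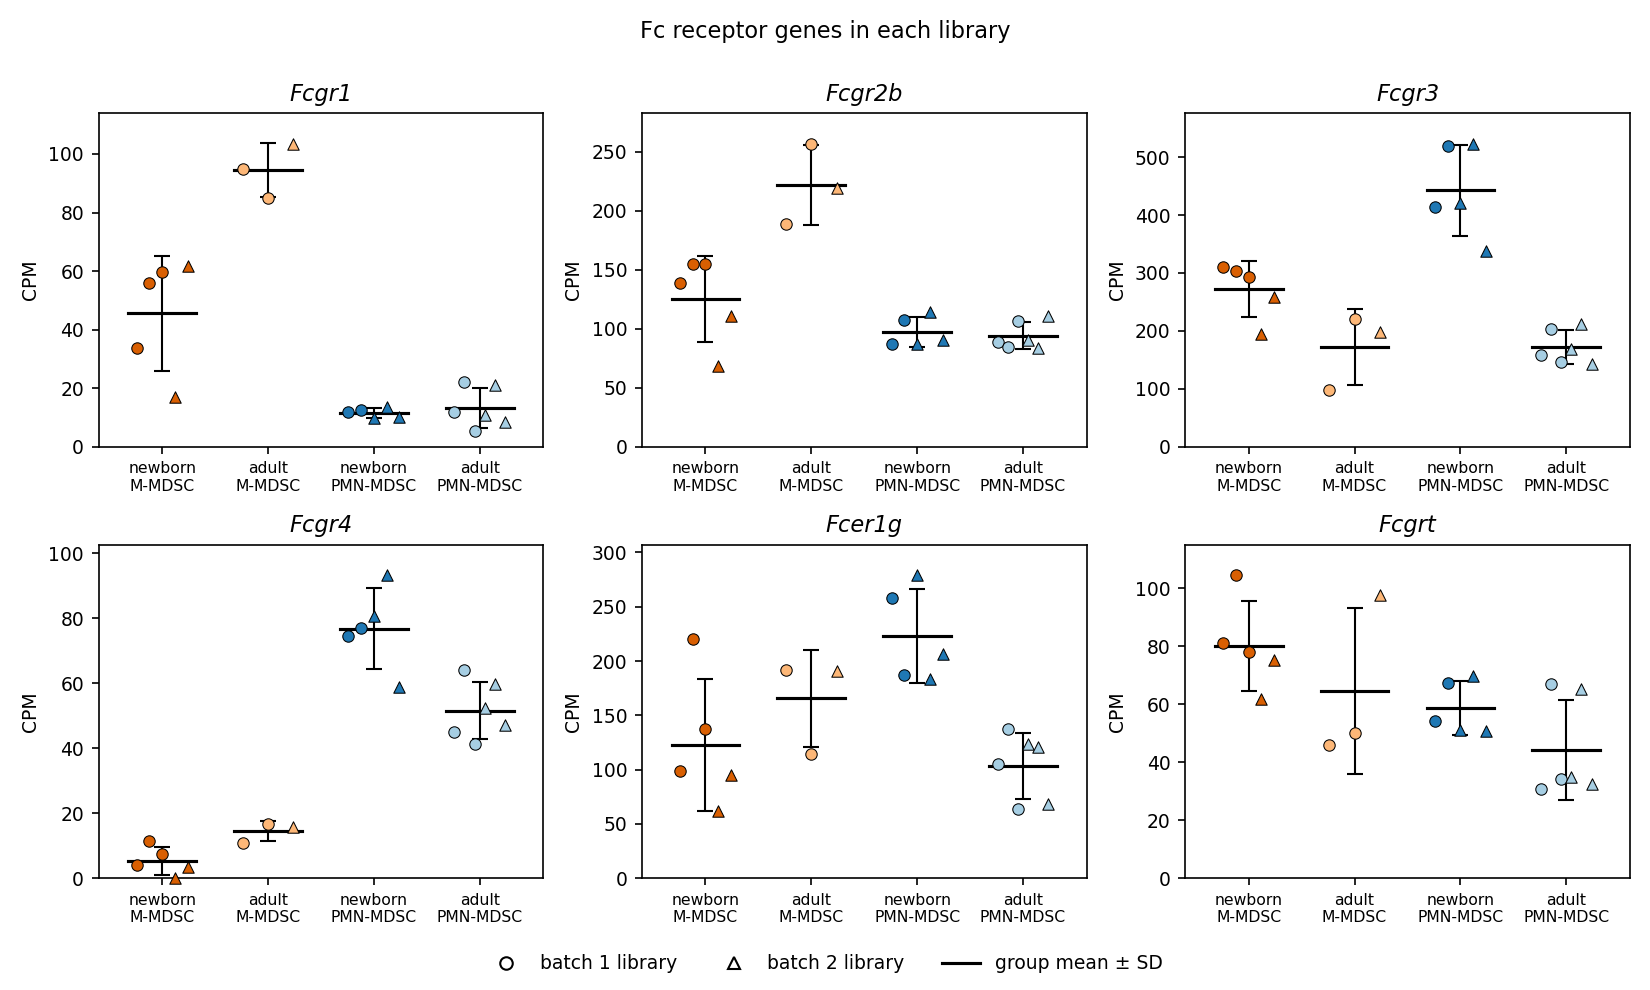
CPM (counts scaled to a common library size) of the 6 Fc receptor genes in each library, on linear axes from 0, with circles for batch 1, triangles for batch 2 and bars for the group mean ± SD. Fcgr3 and Fcer1g are above all 6 adult libraries in all 5 newborn PMN-MDSC libraries, Fcgr1 and Fcgr2b are below all 3 adult libraries in all 5 newborn M-MDSC libraries, and Fcgr4 is low in every M-MDSC library.

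Among PMN-MDSC, newborn cells held more RNA of the activating receptor gene Fcgr3 and of its signalling chain gene Fcer1g, by 2.58-fold and 2.17-fold, while the inhibitory receptor gene Fcgr2b did not pass and its libraries overlapped. Of the 6 genes, 2 rose and 0 fell at an adjusted p under 0.05 (edgeR's quasi-likelihood test, Benjamini-Hochberg over the 12943 genes tested). In this comparison 47.7% of all genes tested were called, 27.1% higher and 20.5% lower, and 51.4% had newborn and adult libraries that did not overlap, so 2 of 6 is no more than the share over all genes. The median log2 fold change of the 6 genes was 0.49, against -0.05 over all genes tested.

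Fcgr3 had 414, 518, 420.1, 523 and 337 CPM in newborn PMN-MDSC (replicates 2, 3, 37, 38 and 39), against a lowest, median and highest of 143, 164 and 211 CPM in adult PMN-MDSC. All 5 newborn libraries were above all 6 adult ones. On the log2 scale the rise was 1.37 ± 0.19 (SE), which is 2.58-fold, with an adjusted p of 1.10e-05 in edgeR. Within batch 1 it was 1.44 (edgeR, adjusted p = 0.00356), within batch 2 it was 1.36 (edgeR, adjusted p = 0.00190), and without the batch 1 libraries that have a close batch 2 library it was 1.34 (edgeR, adjusted p = 0.00421).

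Fcgr4, the activating receptor known from mouse neutrophils and macrophages, had 74.4, 77.0, 80.6, 93.3 and 58.7 CPM in newborn PMN-MDSC, against 41.4, 49.7 and 64.0 CPM (lowest, median and highest) in adult PMN-MDSC. Replicates 2, 3, 37 and 38 of the newborns were above every adult library, and replicate 39 lay among them. A log2 fold change of 0.59 ± 0.50 did not pass (edgeR, adjusted p = 0.354). Its standard error came from 1 estimate of the spread over all 19 libraries, which held newborn M-MDSC replicate 77 with no Fcgr4 count. Without that library the value was 0.57 (edgeR, adjusted p = 0.0385), and in a fit of the PMN-MDSC libraries alone it was 0.56 (edgeR, adjusted p = 0.00338). It was called in 3 of 33 alternatives. Within batch 1 it was 0.56 (edgeR, adjusted p = 0.237), and within batch 2 it was 0.62. Without the closely matched batch 1 libraries it was 0.60 (edgeR, adjusted p = 0.671).

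Fcgr1, the high-affinity receptor of monocytes and macrophages, was low in PMN-MDSC of both ages. It had 9.87 to 13.8 CPM in newborns, against 5.40 to 22.1 CPM in adults, and its log2 fold change was -0.22 ± 0.35 (edgeR, adjusted p = 0.625).

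Fcer1g had 258, 187, 279, 184 and 206 CPM in newborn PMN-MDSC, against 64.2, 113 and 138 CPM (lowest, median and highest) in adult PMN-MDSC. The newborn and adult libraries did not overlap. Fcer1g rose by 1.12 ± 0.27 on the log2 scale, which is 2.17-fold (edgeR, adjusted p = 0.00243). It was 1.09 within batch 1 (edgeR, adjusted p = 0.0481), 1.17 within batch 2 (edgeR, adjusted p = 0.0166) and 1.15 without the closely matched batch 1 libraries (edgeR, adjusted p = 0.0376).

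Fcgr2b had 87.0, 107, 87.3, 114 and 90.2 CPM in newborn PMN-MDSC, against 83.9, 89.8 and 111 CPM in adult PMN-MDSC. Newborn replicate 38 was above every adult library and the others lay among them, with a log2 fold change of 0.06 ± 0.17 (edgeR, adjusted p = 0.80). The sum of Fcgr2b and Fcgr3 counts rose by 1.03 on the log2 scale (edgeR, adjusted p = 2.55e-05). Fcgrt had 50.9 to 69.9 CPM in newborns and 30.7 to 67.0 CPM in adults, with a log2 fold change of 0.39 ± 0.25 (edgeR, adjusted p = 0.209).

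Markers of neutrophils, the cells that PMN-MDSC resemble, and of other cells differed alongside the rise of Fcgr3 and Fcer1g. The summed level of 12 neutrophil markers was 94617 to 106086 CPM in newborn PMN-MDSC, against 10135 to 10844 CPM in adult PMN-MDSC, and 10 of the 12 were higher and 1 lower. The summed level of 12 B cell markers was 710 to 872 CPM in newborn PMN-MDSC, against 3150 to 5003 CPM in adult PMN-MDSC, with 10 of the 12 lower and none at 0 in either group. Of 10 dendritic cell markers 0 were higher and 5 lower, with sums of 122 to 167 CPM in newborn PMN-MDSC, against 1310 to 1539 CPM in adult PMN-MDSC. Of 8 eosinophil markers 5 were higher and 1 lower, and of 9 erythroid markers tested 8 were higher and 0 lower. The part of these cells in the result was not tested, and in bulk libraries fewer cells of a type and less RNA per cell cannot be told apart.

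In M-MDSC newborn cells held less RNA of the inhibitory receptor gene Fcgr2b and of the high-affinity receptor gene Fcgr1. The γ chain gene Fcer1g did not pass. In the test of the difference of the age effects, given below with its limits, Fcgr2b and Fcer1g passed. Fcgr1 (-0.84, edgeR, adjusted p = 0.297) and Fcgr3 (-0.72, edgeR, adjusted p = 0.108) did not. Of the 6 genes, 1 was called higher (Fcgr3) and 2 lower (Fcgr1 and Fcgr2b), where 30.2% of all genes tested were called, 15.9% higher and 14.3% lower. Newborn and adult libraries did not overlap for 2 of the 6, against 23.1% of all genes. Without the closely matched PMN-MDSC libraries, which also feed the shared estimate of the spread, 1 of the 6 was called, Fcgr2b, at -0.89 (edgeR, adjusted p = 0.00971). The median log2 fold change of the 6 genes was -0.66, against 0.01 over all genes.

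Fcgr1 had 33.9, 55.8, 59.8, 16.9 and 61.9 CPM in newborn M-MDSC (replicates 1, 2, 3, 77 and 79), against 94.9, 85.1 and 104 CPM in adult M-MDSC (replicates 1, 3 and 28). Every newborn library was below every adult one. Fcgr1 fell by 1.06 ± 0.39 on the log2 scale (edgeR, adjusted p = 0.0461). The call was lost in 11 of the 19 fits that left out 1 library, among them any 1 of the 3 adult M-MDSC libraries (-0.92 to -1.11, edgeR, adjusted p = 0.0777 to 0.131) and newborn replicate 77 (-0.83, edgeR, adjusted p = 0.0684). It was also lost within batch 1 (-0.86, edgeR, adjusted p = 0.131) and batch 2 (-1.30, edgeR, adjusted p = 0.226).

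Fcgr3 had 311, 304, 292, 194 and 259 CPM in newborn M-MDSC, against 97.6, 221 and 199 CPM in adult M-MDSC. Replicate 77 of the newborns lay among the adults and the other 4 newborn libraries above them. The log2 fold change was 0.65 ± 0.24 (edgeR, adjusted p = 0.0477). The call was kept in 6 of the 19 fits that left out 1 library. Without adult replicate 1 the value was 0.33 (edgeR, adjusted p = 0.281), and it was 0.91 within batch 1 (edgeR, adjusted p = 0.0488) and 0.25 within batch 2 (edgeR, adjusted p = 0.638).

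Fcgr4 was low in newborn M-MDSC, with 4.18, 11.5, 7.41, 0 and 3.58 CPM from 9, 18, 16, 0 and 89 counts, against 11, 16.6 and 15.8 CPM from 20, 40 and 275 counts in adult M-MDSC. The 0 of replicate 77 allows a level of up to 0.141 CPM. Pooled over libraries the level was 2.54 CPM in newborn M-MDSC, against 15.5 CPM in adult M-MDSC. A log2 fold change of -1.82 ± 0.70 did not pass (edgeR, adjusted p = 0.0569), and without replicate 77 it was -1.31 (edgeR, adjusted p = 0.00546).

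Fcgr2b had 139, 155, 155, 68.7 and 111 CPM in newborn M-MDSC, against 189, 257 and 219.6 CPM in adult M-MDSC. The groups did not overlap. Fcgr2b fell by 0.84 ± 0.20 on the log2 scale (edgeR, adjusted p = 0.00409), and the call held with each of the 19 libraries left out in turn. It was -0.59 within batch 1 (edgeR, adjusted p = 0.0754) and -1.22 within batch 2 (edgeR, adjusted p = 0.0251). The sum of Fcgr2b and Fcgr3 counts had a log2 fold change of 0.00 (edgeR, adjusted p = 0.993). That sum also holds the higher Fcgr3 of newborns, so it cannot show how reads that fit both genes were divided. The division of the reads both genes share bears on the value of each.

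Fcer1g had 98.9, 220.0, 138, 62.3 and 94.8 CPM in newborn M-MDSC, against 192, 114 and 191 CPM in adult M-MDSC. The libraries overlapped and the log2 fold change was -0.47 ± 0.33 (edgeR, adjusted p = 0.304). Fcgrt had 61.9 to 105 CPM in newborns and 46.1, 50.2 and 97.5 CPM in adults, with a log2 fold change of 0.29 ± 0.30 (edgeR, adjusted p = 0.505).

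Markers of other cells differed in both directions between newborn and adult M-MDSC. Of 9 nonclassical monocyte markers, 8 were lower, with summed levels of 1830 to 2268 CPM in newborn M-MDSC, against 3349 to 5626 CPM in adult M-MDSC. Of 12 B cell markers, 10 were lower (202 to 326 CPM in newborns, 694 to 1784 CPM in adults), and of 12 splenic macrophage markers 7 were lower (534 to 608 CPM in newborns, 816 to 1066 CPM in adults). No marker of these 3 lists was at 0 in either group. Of 10 dendritic cell markers 5 were lower (43.2 to 194 CPM in newborns, 779 to 894 CPM in adults), and of 10 T cell markers 9. Within the 8 M-MDSC libraries Fcgr2b had an r of 0.84 with the B cell and 0.83 with the dendritic cell sum. It was negative with the neutrophil (-0.40), classical monocyte (-0.50), basophil and mast cell (-0.58) and eosinophil (-0.66) sums. B cells are known to carry FcγRIIB, and the part of any of these cells in the lower Fcgr2b or Fcgr1 was not tested. Neutrophil markers went the other way, with 8 of 12 higher and 0 lower, and summed to 2917 to 13368 CPM in newborn M-MDSC, against 851 to 1372 CPM in adult M-MDSC. Of 8 eosinophil markers 5 were higher and 1 lower, and of 3 basophil and mast cell markers tested 2 were higher. Of the 8 basophil and mast cell genes listed, Cpa3 and Fcer1a had no count in either M-MDSC group. Cma1 had none in newborns, and Mcpt8, Ms4a2 and Prss34 had none in adults. Their sum was 33.1 to 64.9 CPM in newborn M-MDSC, against 3.84 to 7.89 CPM in adult M-MDSC. Within the 8 M-MDSC libraries Fcgr3 had an r of 0.77 with the neutrophil sum and 0.83 with the basophil and mast cell sum, and the part of these cells in the Fcgr3 value was not tested.

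**Figure D2:**
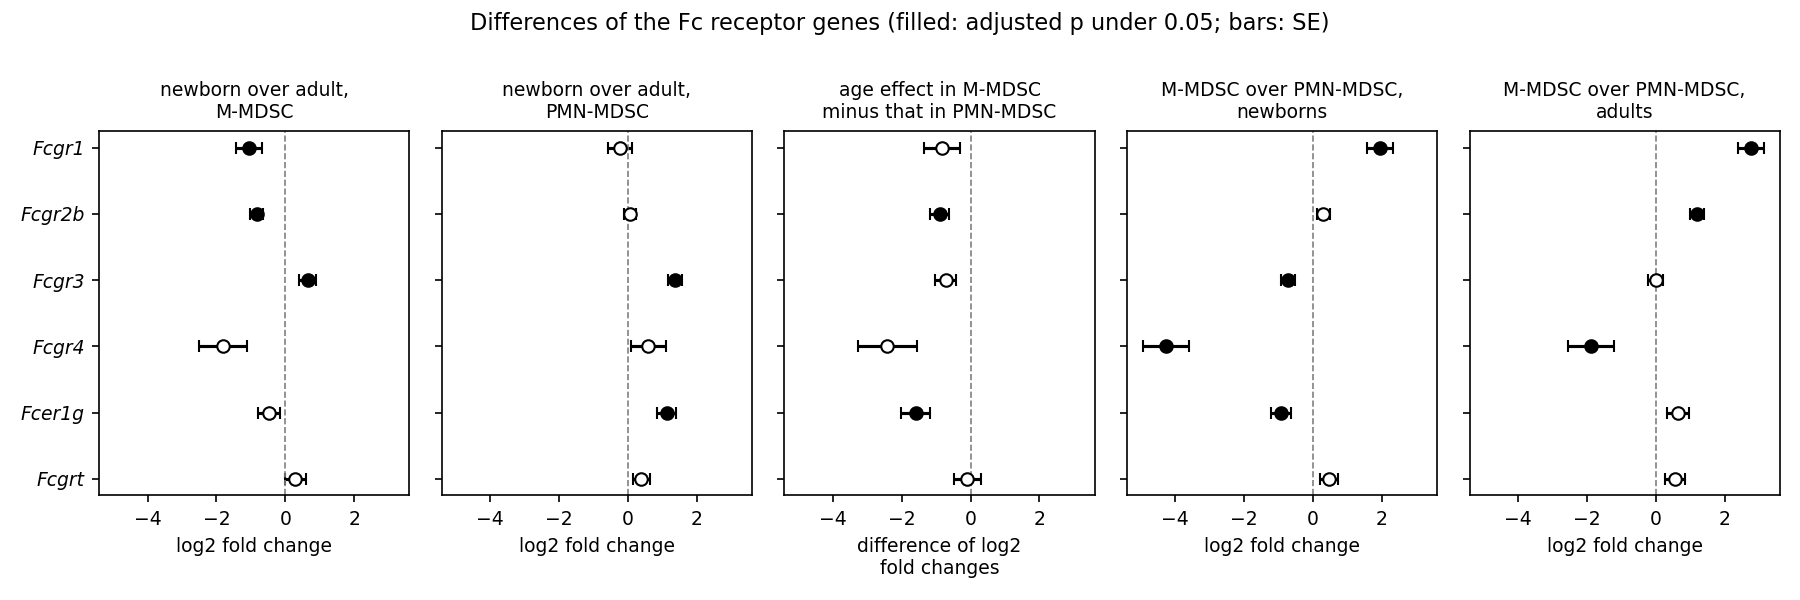
Log2 fold changes of the 6 genes in the 5 comparisons, each gene a row, with bars for 1 SE and filled points for an adjusted p under 0.05 in edgeR. Fcgr3 and Fcer1g are filled on the right in the PMN-MDSC age panel, Fcgr1 and Fcgr2b on the left in the M-MDSC age panel, and Fcgr4 reaches -4.28 between the cell types of newborns.

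The difference of the age effects, M-MDSC minus PMN-MDSC, passed for Fcgr2b and Fcer1g, 2 of the 6 genes, where 18.1% of all genes were called, 6.61% higher and 11.5% lower. For Fcer1g it was -1.59 ± 0.43 on the log2 scale (edgeR, adjusted p = 0.0136). It held with each library left out in turn, and it was -2.38 within batch 2 (edgeR, adjusted p = 0.0109), -1.11 within batch 1 (edgeR, adjusted p = 0.280) and -1.70 without the closely matched libraries (edgeR, adjusted p = 0.0607). For Fcgr2b it was -0.90 ± 0.27 (edgeR, adjusted p = 0.0237). That call was lost without adult M-MDSC replicate 28 (-0.84, edgeR, adjusted p = 0.0542), without adult M-MDSC replicate 3 (-0.81, edgeR, adjusted p = 0.0752), within batch 1 (-0.63, edgeR, adjusted p = 0.312) and without the closely matched libraries (-0.97, edgeR, adjusted p = 0.0912), and it was -1.32 within batch 2 (edgeR, adjusted p = 0.0418).

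For the other 4 genes the difference of the age effects did not pass. It was -2.41 ± 0.87 for Fcgr4 (edgeR, adjusted p = 0.0615), and -1.87 without newborn M-MDSC replicate 77 (edgeR, adjusted p = 0.00295). Fcgr3 had -0.72 ± 0.30 (edgeR, adjusted p = 0.108), and -1.06 without adult M-MDSC replicate 1 (edgeR, adjusted p = 0.00715). For the sum of Fcgr2b and Fcgr3 it was -1.02 and passed (edgeR, adjusted p = 0.00632). Fcgr1 had -0.84 ± 0.52 (edgeR, adjusted p = 0.297) and Fcgrt -0.10 ± 0.39 (edgeR, adjusted p = 0.900).

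Between the cell types the activating receptors divided: M-MDSC held more Fcgr1 RNA and far less Fcgr4 RNA than PMN-MDSC at both ages. In newborns 4 of the 6 genes were called, 1 higher and 3 lower in M-MDSC, where 42% of all genes were called (18.7% higher, 23.4% lower), and 3 of the 6 did not overlap, against 38.4% of all genes. In adults 3 of the 6 were called, 2 higher and 1 lower, where 29.1% of all genes were called (16.7% higher, 12.5% lower), and 3 of the 6 did not overlap, against 29.7% of all genes. The median log2 fold change of the 6 genes was -0.21 in newborns and 0.60 in adults, against -0.13 over all genes at either age.

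Fcgr1 averaged 45.7 ± 19.6 CPM in newborn M-MDSC and 11.7 ± 1.65 CPM in newborn PMN-MDSC (SD, n = 5 each). It was 1.94 ± 0.37 higher on the log2 scale in M-MDSC, or 3.84-fold (edgeR, adjusted p = 3.21e-04). In adults it averaged 94.5 ± 9.23 CPM in M-MDSC (SD, n = 3) and 13.3 ± 6.82 CPM in PMN-MDSC (SD, n = 6), with a log2 fold change of 2.78 ± 0.38, or 6.86-fold (edgeR, adjusted p = 2.13e-05). No M-MDSC library overlapped a PMN-MDSC library of its age, and Fcgr1 was called under every alternative tried at both ages.

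Fcgr4 averaged 5.34 ± 4.35 CPM in newborn M-MDSC and 76.8 ± 12.5 CPM in newborn PMN-MDSC (SD, n = 5 each). The log2 fold change was -4.28 ± 0.67, 19.4-fold lower (edgeR, adjusted p = 4.72e-05), and without replicate 77 it was -3.70 (edgeR, adjusted p = 6.33e-08). In adults it averaged 14.5 ± 3.06 CPM in M-MDSC (SD, n = 3) and 51.6 ± 8.86 CPM in PMN-MDSC (SD, n = 6), and the libraries did not overlap at either age. The adult log2 fold change was -1.87 ± 0.67 (edgeR, adjusted p = 0.0429), a call kept under 14 of 33 alternatives and in 5 of the 19 fits that left out 1 library, and without newborn M-MDSC replicate 77 it was -1.83 (edgeR, adjusted p = 1.30e-04).

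Fcgr3 was lower in newborn M-MDSC, at 272 ± 47.9 CPM, than in newborn PMN-MDSC, at 443 ± 78.5 CPM (SD, n = 5 each), with no overlap. The log2 fold change was -0.72 ± 0.21 (edgeR, adjusted p = 0.00842), and it was -0.62 within batch 1 (edgeR, adjusted p = 0.153) and -0.86 without the closely matched libraries (edgeR, adjusted p = 0.0533). In adults it averaged 172 ± 65.7 CPM in M-MDSC (SD, n = 3) and 172 ± 29.1 CPM in PMN-MDSC (SD, n = 6), with a log2 fold change of -0.00 ± 0.23 (edgeR, adjusted p = 0.992). The sum of Fcgr2b and Fcgr3 was higher in adult M-MDSC, by 0.55 (edgeR, adjusted p = 0.0301), and lower in newborn M-MDSC, at -0.48 (edgeR, adjusted p = 0.0286).

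Fcer1g averaged 123 ± 60.6 CPM in newborn M-MDSC and 223 ± 43.3 CPM in newborn PMN-MDSC (SD, n = 5 each). The libraries overlapped through M-MDSC replicate 2, and the log2 fold change was -0.93 ± 0.30 (edgeR, adjusted p = 0.0169). The call was lost without replicate 77 (-0.72, edgeR, adjusted p = 0.0590), without replicate 79 (-0.85, edgeR, adjusted p = 0.0521) and within batch 1 (-0.54, edgeR, adjusted p = 0.319). In adults the direction was the other one and did not pass, at 166 ± 44.7 CPM in M-MDSC (SD, n = 3), 103 ± 30.7 CPM in PMN-MDSC (SD, n = 6) and a log2 fold change of 0.66 ± 0.32 (edgeR, adjusted p = 0.127).

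Fcgr2b was higher in adult M-MDSC, at 222 ± 33.9 CPM (SD, n = 3), than in adult PMN-MDSC, at 94.3 ± 11.6 CPM (SD, n = 6), a log2 fold change of 1.2 ± 0.19 or 2.30-fold (edgeR, adjusted p = 1.41e-04). In newborns it averaged 125 ± 36.5 CPM in M-MDSC and 97.2 ± 12.7 CPM in PMN-MDSC (SD, n = 5 each), with overlapping libraries and a log2 fold change of 0.30 ± 0.18 (edgeR, adjusted p = 0.201). Without replicate 77 the newborn value was 0.49 (edgeR, adjusted p = 0.0149). Fcgrt differed between the cell types by 0.45 ± 0.26 in newborns (edgeR, adjusted p = 0.177) and 0.55 ± 0.28 in adults (edgeR, adjusted p = 0.155).

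The order of the group means, and where neighbours in it were apart, differed from gene to gene. Fcgr1 ran from adult M-MDSC through newborn M-MDSC to adult and then newborn PMN-MDSC, and the libraries of adult PMN-MDSC overlapped those of newborn PMN-MDSC and of newborn M-MDSC. Fcgr2b was highest in adult M-MDSC, and the other 3 groups overlapped one another. Fcgr3 was highest in newborn PMN-MDSC, next in newborn M-MDSC, and lowest in the 2 adult groups, which were not apart, and the newborn M-MDSC libraries overlapped those of both. Fcgr4 ran from newborn PMN-MDSC and adult PMN-MDSC, which overlapped by 1 newborn library, to adult M-MDSC and newborn M-MDSC, which overlapped by 1 newborn library. Fcer1g was highest in newborn PMN-MDSC and lowest in adult PMN-MDSC, which were apart. Both M-MDSC groups had means between them and overlapped each other and both PMN-MDSC groups. Fcgrt had its highest mean in newborn M-MDSC (80.1 ± 15.5 CPM) and its lowest in adult PMN-MDSC (44.1 ± 17.1 CPM), and none of the 5 comparisons called it.

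Levels of different genes were compared per kilobase of merged exons. Fcgr3 and Fcer1g led in all 4 groups. In newborn M-MDSC Fcgr3 had 157 CPM per kb and Fcer1g 140.4, in adult M-MDSC 99.3 and 190, in newborn PMN-MDSC 255 and 255, and in adult PMN-MDSC 99.1 and 118. Fcgr4 came next in both PMN-MDSC groups, with 61.1 CPM per kb in newborns and 41.1 in adults, and last in both M-MDSC groups, with 4.25 in newborns and 11.5 in adults. Fcgr1 was last in both PMN-MDSC groups, with 4.51 CPM per kb in newborns and 5.15 in adults, against 17.6 in newborn and 36.5 in adult M-MDSC. Fcgr2b had 21.7 CPM per kb in newborn M-MDSC, 38.3 in adult M-MDSC, 16.8 in newborn PMN-MDSC and 16.3 in adult PMN-MDSC. Per kilobase of the longest transcript Fcgr2b ranked above Fcgrt in adult PMN-MDSC, where it was below it per kilobase of merged exons.

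Ratios within a library, in which the scaling cancels, set each activating receptor beside the inhibitory one, as a description without a test. The ratio of Fcgr3 to Fcgr2b per kilobase of merged exons was 7.52 ± 1.24 in newborn M-MDSC (n = 5), 2.54 ± 0.71 in adult M-MDSC (n = 3), 15.2 ± 1.54 in newborn PMN-MDSC (n = 5) and 6.24 ± 1.70 in adult PMN-MDSC (n = 6), all with SD. In M-MDSC the newborn libraries had 6.30 to 9.43 and the adult ones 1.72 to 3.02, and in PMN-MDSC the newborn libraries had 12.5 to 16.1 and the adult ones 4.29 to 8.41. The newborn libraries were thus above the adult ones in both cell types. In PMN-MDSC the Fcgr3 level differed and the Fcgr2b level did not, while in M-MDSC both called genes moved in opposite directions and the reads they share bear on the ratio. Per kilobase of the longest transcript the means were 5.93, 2.00, 12 and 4.92 in the same order of groups.

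The ratio of Fcgr4 to Fcgr2b was 0.171 ± 0.126 in newborn M-MDSC, 0.299 ± 0.033 in adult M-MDSC, 3.65 ± 0.50 in newborn PMN-MDSC and 2.58 ± 0.69 in adult PMN-MDSC. It was above 1 in every PMN-MDSC library and below 1 in every M-MDSC library. The ratio of Fcgr1 to Fcgr2b was 0.804 in newborn M-MDSC, 0.972 in adult M-MDSC, 0.269 in newborn PMN-MDSC and 0.334 in adult PMN-MDSC. The ratio of Fcgr3 to its partner chain gene Fcer1g averaged 1.26 in newborn M-MDSC, 0.585 in adult M-MDSC, 1.04 in newborn PMN-MDSC and 0.879 in adult PMN-MDSC, and the ranges of newborn and adult libraries overlapped in both cell types.

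**Figure D3:**
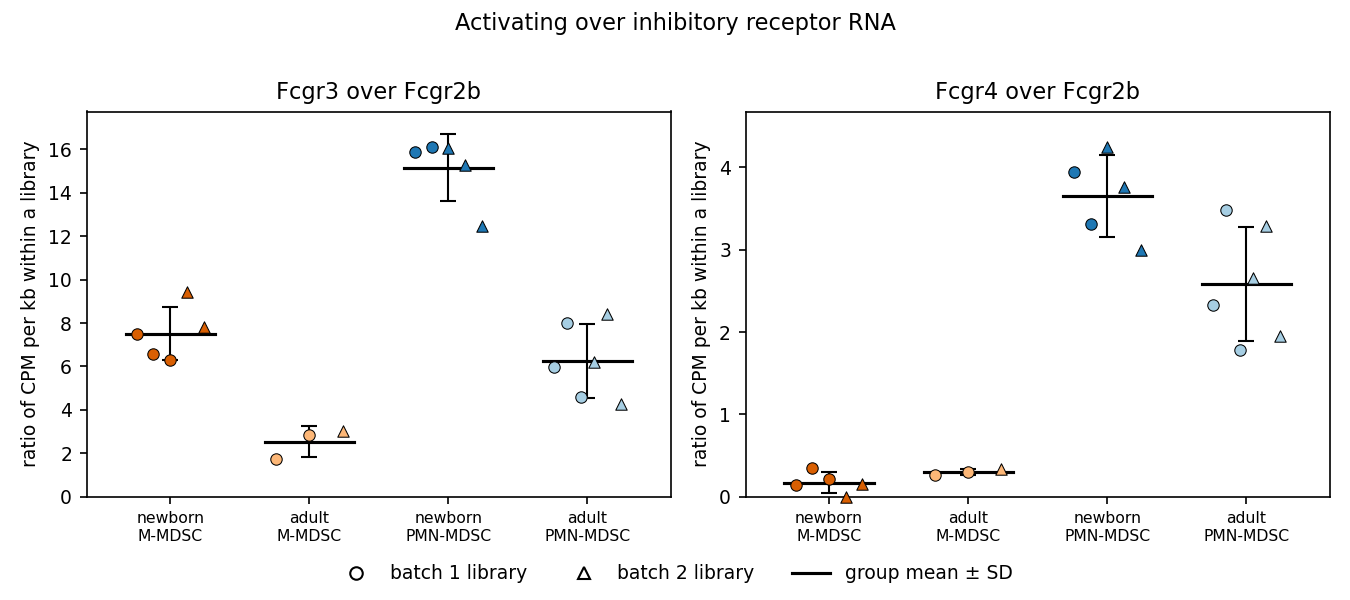
Ratio of CPM per kilobase of merged exons within each library, Fcgr3 over Fcgr2b on the left and Fcgr4 over Fcgr2b on the right, with circles for batch 1, triangles for batch 2 and bars for the group mean ± SD. Newborn libraries are above adult ones for Fcgr3 over Fcgr2b in both cell types, and Fcgr4 over Fcgr2b separates the cell types, with means of 0.171 in newborn and 0.299 in adult M-MDSC, against 3.65 in newborn and 2.58 in adult PMN-MDSC.

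The genes whose log2 CPM followed the Fc receptors most closely over the 19 libraries differed between members. This is a description over libraries that share groups and depth. For Fcgr4 the 3 closest of 8545 genes of at least 10 CPM were Fcna (r = 0.99), Itgad (r = 0.98) and C1qa (r = 0.97). C1qa codes for a chain of complement C1q, made by macrophages, and Itgad and Fcna are known from splenic macrophages. For Fcgr3 they were Dnm2 (0.96), Cnn2 (0.95) and Aagab (0.94), for Fcgr1 Plxnb2, Fam234a and Lrp1 (0.94 each), and for Fcer1g Myl6 (0.91), Nadk (0.88) and Cyb5r1 (0.87). Fcgr2b had Tmem176b and Dennd1a (0.86 each), and Fcgrt had Ccdc12 (0.91), Ppt2 (0.90) and Cuta (0.89). Among the members themselves the highest r was 0.78, between Fcgr1 and Fcgr2b, and Fcgr3 and its partner chain gene Fcer1g had 0.54.

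Macrophage markers moved with Fcgr4 between the cell types. The 12 splenic macrophage markers summed to 534 to 608 CPM in newborn M-MDSC, 816 to 1066 in adult M-MDSC, 2475 to 3051 in newborn PMN-MDSC and 2314 to 4839 in adult PMN-MDSC, and 11 of the 12 were lower in M-MDSC at both ages. C1qa averaged 4.60 CPM in newborn M-MDSC, 24.7 in adult M-MDSC, 107 in newborn PMN-MDSC and 153 in adult PMN-MDSC. The r of Fcgr4 with this sum was 0.83 over 19 libraries, 0.64 within the 8 M-MDSC libraries and 0.21 within the 11 PMN-MDSC libraries. With the sum of nonclassical monocyte markers, cells also known to carry FcγRIV in the mouse, the r was -0.23 over all libraries, 0.59 within M-MDSC and 0.90 within PMN-MDSC. In PMN-MDSC that sum does not stand for the list, since 2 of its 9 genes were higher and 5 lower in newborns (median log2 fold change -1.04). Within PMN-MDSC Fcgr4 also had an r of 0.92 with the sum of megakaryocyte and platelet markers, which was only 8.85 to 34.0 CPM, and 0.91 with that of eosinophil markers. With the sum of neutrophil markers, the cells that PMN-MDSC resemble, it was 0.81 within PMN-MDSC and 0.59 over all libraries. It was negative within PMN-MDSC, from -0.60 to -0.84, with the sums of B cell, plasma cell, dendritic cell, NK cell and T cell markers. Both the age and the cell type separate the libraries behind these values. The part of any of these cell types in the Fcgr4 level was not tested. Within PMN-MDSC Fcgr1 had an r of 0.96 with the classical monocyte sum and 0.89 with the macrophage sum (n = 11). Its level and the macrophage sum were highest in adult replicates 2 and 33, which are 1 of the closely matched pairs.

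**Figure D4:**
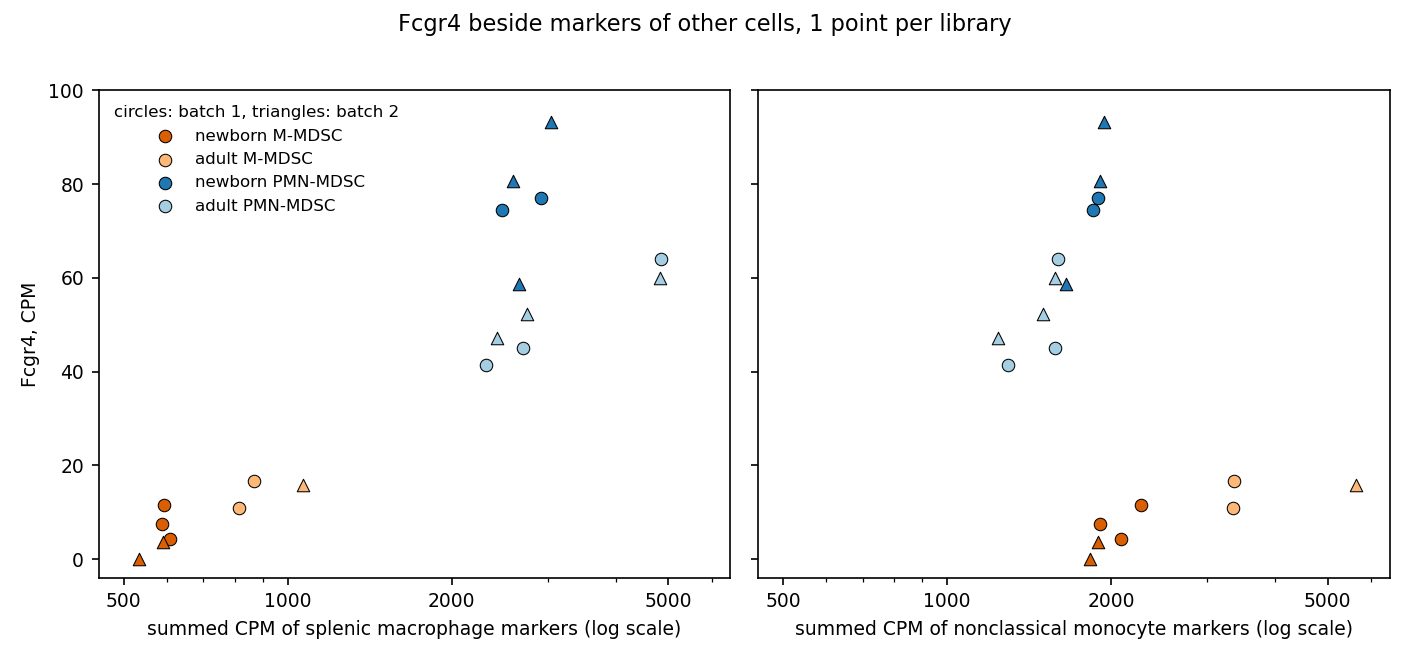
Fcgr4 level in CPM against the summed CPM of splenic macrophage markers (left) and nonclassical monocyte markers (right, both on log scales), 1 point per library. The M-MDSC libraries lie at low Fcgr4 and low macrophage sums, and within PMN-MDSC the r of Fcgr4 is 0.90 with the nonclassical monocyte sum, of whose 9 genes 5 were lower and 2 higher in newborns, and 0.21 with the macrophage sum.

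Downstream of the receptors, 26 genes of the activating pathway were listed (activating genes below). The list is not of signal carriers alone, since it also holds Cbl and Cblb. In newborn PMN-MDSC 13 of the 26 rose and 5 fell, where 27.1% of all genes rose and 20.5% fell. The median log2 fold change of the list was 0.37, against -0.05 over all genes. With upper-quartile scaling, which shifted the median of all genes by -0.24, the split was 11 higher and 7 lower. Card9, the adaptor that leads from Syk to NF-κB, rose by 1.61 ± 0.13 to 96.9 CPM in newborns, against 32.0 CPM in adults (edgeR, adjusted p = 7.65e-09). Cbl, a ubiquitin ligase that acts on activated receptors, rose by 1.24 ± 0.10 (edgeR, adjusted p = 1.29e-08). Its relative Cblb, which restrains such signals, fell by 2.45 ± 0.18 (edgeR, adjusted p = 2.03e-09), and the adaptor gene Lat2 fell by 2.92 ± 0.22 (edgeR, adjusted p = 3.51e-09).

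Of 8 genes of the inhibitory arm, 4 rose and 1 fell in newborn PMN-MDSC, beside the same shares over all genes, and with upper-quartile scaling 3 rose and 3 fell. The adaptor gene Dok2 averaged 47.7 CPM in newborns and 6.92 CPM in adults (log2 fold change 2.74 ± 0.30, edgeR, adjusted p = 5.75e-07). The phosphatase gene Ptpn11 (1.33 ± 0.11) and the adaptor gene Dok3 (1.26 ± 0.17) rose too, and the phosphatase gene Inppl1 fell by 1.15 ± 0.23. Of 4 adaptors listed beside Fcer1g, 3 rose with it and 1 fell, where 27.1% of all genes rose and 20.5% fell. The ITAM adaptor genes Nfam1 and Tyrobp rose by 1.57 ± 0.16 (edgeR, adjusted p = 1.63e-07) and 0.83 ± 0.24 (edgeR, adjusted p = 0.00848). The adaptor gene Hcst rose by 1.88 ± 0.62 (edgeR, adjusted p = 0.0175). Hcst carries no ITAM of its own but signals through PI3-kinase. Cd247, the T cell receptor ζ chain gene, fell by 2.19 ± 0.88 (edgeR, adjusted p = 0.0485). It was low in both groups, with 1.01 CPM in newborns and 5.30 CPM in adults.

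Other receptors that use the Fcer1g chain did not follow it. Of 7 in the list, 5 were tested. In newborn PMN-MDSC 0 rose and 3 fell, beside 27.1% and 20.5% of all genes. These were the C-type lectin genes Clec4e (-2.87 ± 0.56, 38.8 CPM in newborns against 282 CPM in adults, edgeR, adjusted p = 3.17e-04) and Clec4d (-2.46 ± 0.48, edgeR, adjusted p = 3.38e-04), and Cd300ld (-1.23 ± 0.26, edgeR, adjusted p = 6.54e-04). In newborn M-MDSC 4 of the 5 fell, beside 14.3% of all genes. The log2 fold changes were -2.18 for Cd300ld, -2.32 for Clec4e, -2.72 for Clec4n and -1.95 for Clec4d. Cd300ld had 5.13 to 14.9 CPM in newborn and 22.5 to 55.0 CPM in adult M-MDSC. Clec4n had 0 to 3.71 CPM in newborns, near the limit of batch 1, and 6.64 to 22.5 CPM in adults. The libraries overlapped for Clec4e (14.8 to 74.9 CPM in newborns, 61.4 to 411 CPM in adults) and Clec4d (1.86 to 6.10 CPM in newborns, 0.830 to 30.7 CPM in adults). Oscar and Gp6 of this list did not pass the filter on low counts.

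In newborn M-MDSC 6 of the 26 activating genes rose and 8 fell, where 15.9% of all genes rose and 14.3% fell, and 1 rose and 9 fell with upper-quartile scaling or DESeq2 size factors. Syk, the kinase that binds the γ chain, fell by 0.79 ± 0.13 to 732 CPM in newborns, against 1265 CPM in adults (edgeR, adjusted p = 2.14e-04). Lat2 (-1.61), Fyn (-1.77) and Cblb (-1.14) fell with it. Of the inhibitory arm 1 of 8 rose, Ptpn11 by 0.45 (edgeR, adjusted p = 0.0131), and with the same alternative scalings 1 rose and 1 fell. Of the 4 adaptors Cd247 fell, on 7 counts in the newborn M-MDSC libraries together. The age effects differed between the cell types for 12 of the 26 activating genes, where 18.1% of all genes were called. The M-MDSC effect was the lower one for 10 of them, among them Cbl (-1.16), Fgr (-1.50) and Card9 (-1.02). The age effects also differed for Dok2 (-2.52), Ptpn11 (-0.88), Dok3 (-1.36), Nfam1 (-1.39) and Hcst (-3.04).

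**Figure D5:**
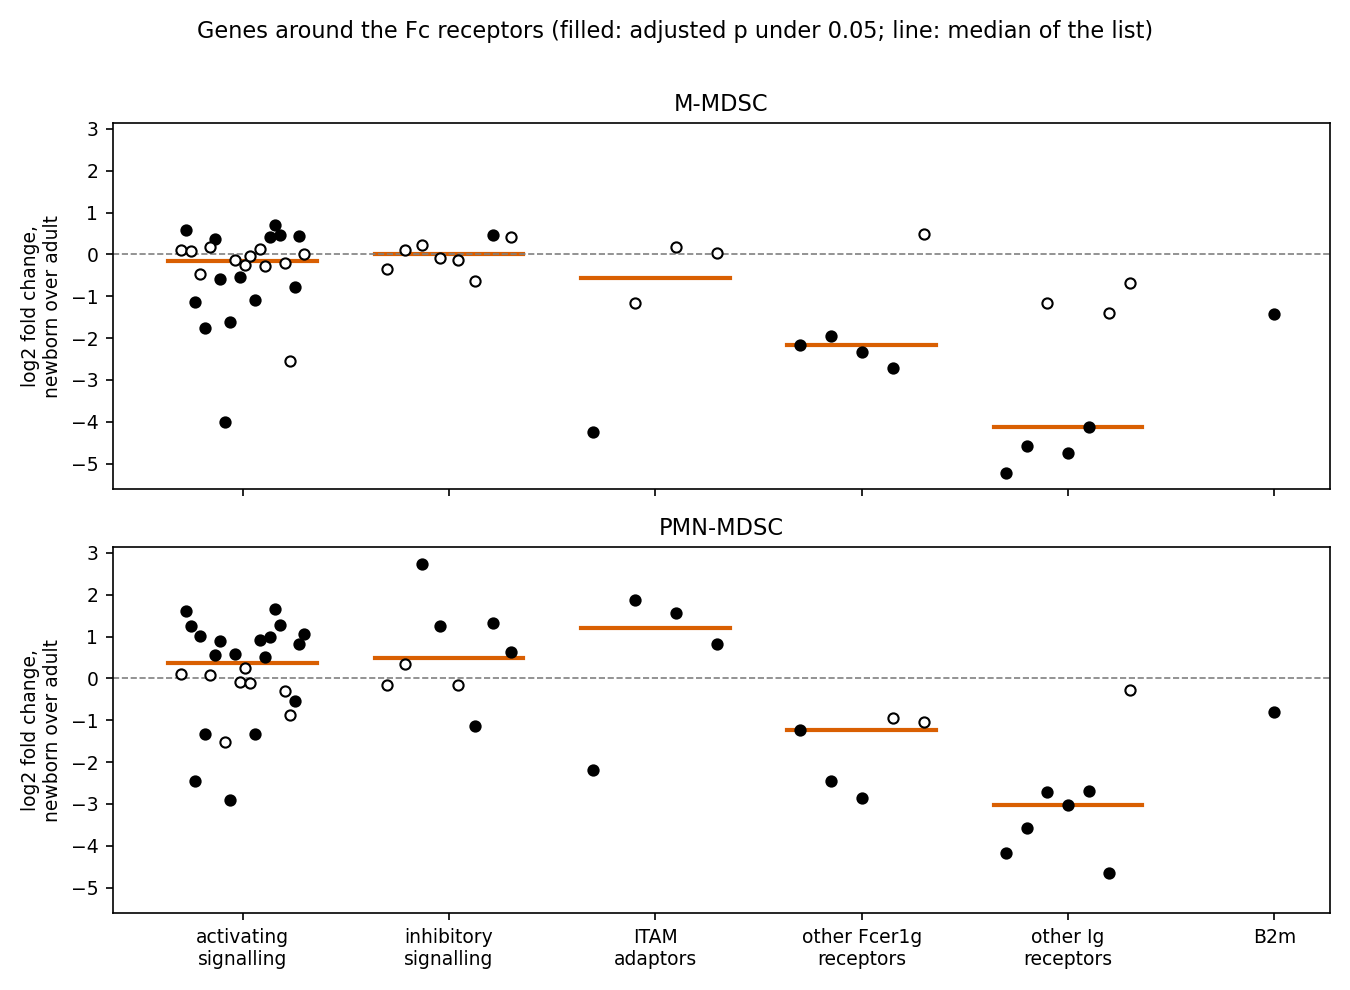
Log2 fold change of newborn over adult cells for each tested gene of the lists around the Fc receptors, M-MDSC above and PMN-MDSC below, filled where the adjusted p is under 0.05 in edgeR, with a line at the median of each list. The activating list, which also holds Cbl and Cblb, has a median of 0.37 in PMN-MDSC and -0.17 in M-MDSC. The other immunoglobulin receptors have a median of -3.03 in PMN-MDSC and -4.12 in M-MDSC.

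Between the cell types, 5 of the 26 activating genes were higher and 10 lower in newborn M-MDSC, beside 18.7% and 23.4% of all genes, and 7 higher and 7 lower with upper-quartile scaling. Lat2 (1.71) and Cblb (1.34) were among the higher ones, and Cbl (-0.81) and Rac2 (-1.45) among the lower. In adults 9 were higher and 2 lower in M-MDSC, beside 16.7% and 12.5% of all genes, led by Card9 (1.31), Prkcd (1.17), Pik3cd (0.93) and Rac1 (0.76), with 9 higher and 4 lower under upper-quartile scaling and 8 higher and 4 lower with DESeq2 size factors. Of the 8 inhibitory genes 2 were higher and 3 lower in newborn M-MDSC, and 4 higher and 0 lower in adult M-MDSC. Inppl1 was higher in M-MDSC at both ages (2.20 in newborns, 1.69 in adults). Cd300ld and Clec4d were lower in M-MDSC at both ages (-3.33 and -3.25 in newborns, -2.38 and -3.76 in adults).

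Among other receptors for immunoglobulins and Fc receptor-like genes, 7 of 12 were tested. Of these, 6 fell in newborn PMN-MDSC and 4 in newborn M-MDSC, beside 20.5% and 14.3% of all genes, with none higher. Fcer2a, the low-affinity IgE receptor CD23 of B cells, averaged 8.32 CPM in newborn PMN-MDSC and 155 CPM in adult PMN-MDSC (log2 fold change -4.18 ± 0.57, edgeR, adjusted p = 7.03e-06). Fcmr, the IgM receptor, fell in both cell types, with -3.57 ± 0.56 in PMN-MDSC (edgeR, adjusted p = 3.61e-05) and -4.58 ± 0.70 in M-MDSC (edgeR, adjusted p = 7.67e-05). Fcrla and Fcrl1 fell in PMN-MDSC and Fcrla and Fcrl5 in M-MDSC. The M-MDSC value of Fcrl5 rested on 30 counts in 1 adult library and 3 counts in 1 newborn library. The genes named here are known from B cells, whose markers fell alongside them as given above. Fcer2a is itself one of those markers. Without the closely matched PMN-MDSC libraries, 2 of the 7 fell in newborn PMN-MDSC. Fcer1a and Ms4a2, the other chains of the high-affinity IgE receptor that also holds the γ chain, did not pass the filter, and Fcer1a had no count in any M-MDSC library.

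B2m, the light chain with which FcRn works, fell in newborns of both cell types. It averaged 162 ± 13.6 CPM in newborn M-MDSC (SD, n = 5) and 435 ± 110.3 CPM in adult M-MDSC (SD, n = 3), a log2 fold change of -1.43 ± 0.14 (edgeR, adjusted p = 6.12e-07). Newborn PMN-MDSC had a mean of 254 ± 22.8 CPM (SD, n = 5), against 438 ± 42.6 CPM in adult PMN-MDSC (SD, n = 6), and the log2 fold change was -0.80 ± 0.12 (edgeR, adjusted p = 2.17e-05). The heavy chain gene Fcgrt did not pass in either cell type.

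Around the cluster on chromosome 1, 37 other genes of the table lay within 250 kb, of which 18 were tested. In newborn PMN-MDSC 6 of them rose and 3 fell, near the 27.1% and 20.5% of all genes, with a median log2 fold change of 0.17 against -0.05 over all genes. In newborn M-MDSC 2 rose and 3 fell, beside 15.9% and 14.3% of all genes. In M-MDSC against PMN-MDSC, 6 were higher and 4 lower in newborns, beside 18.7% and 23.4% of all genes, and 8 higher and 0 lower in adults, beside 16.7% and 12.5%. Fcgr2b and Fcgr4, which lie in the same cluster, differed in opposite directions between adult M-MDSC and PMN-MDSC.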

How the data were processed

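The deposited table holds the authors' estimated counts, not normalized. RSEM 1.2.3, the mm10 build and DESeq2 (its role unstated) appear in the submitters' processing notes. For aligner and annotation, nothing is given in the sources used here. Use of strand in counting is unstated. Groups, replicates and batches came from the labels. Of the 38887 gene identifiers, 96.6% were in GENCODE M21.

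Rounded counts were tested with edgeR 4.0.16 (quasi-likelihood) in R 4.3.3: all 19 libraries in 1 model with group and batch, scaled by TMM and filtered on low counts by group with filterByExpr (12943 genes tested, 14 residual degrees of freedom). Adjusted p-values are Benjamini-Hochberg over all genes tested, called under 0.05. Standard errors are the log2 fold change over the root of edgeR's F. CPM use the TMM-scaled library size, and floors of 3 counts cover counting error only. The fit was tested on simulated counts. The members and all lists were chosen with earlier results of these data known. Named beside the members are up to 4 called genes per list and comparison, by smallest adjusted p, and the 3 genes most correlated with each member. Some genes that this rule takes are not reported here. Genes named outside this rule (sort and sex markers) were chosen after their values were seen.

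Alternatives covered the batch term, batches, groups in the fit, a replicate block, scaling, DESeq2 1.42.0, limma-voom (limma 3.58.1), filters, Fcgr2b and Fcgr3 summed, each library left out, and the closely matched libraries left out.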

Additional observations from a re-analysis of the deposited data

Results flagged for a closer look

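The age effect differed between the cell types, by a test of the difference itself in edgeR, for Fcer1g (M-MDSC minus PMN-MDSC, -1.59 on the log2 scale, adjusted p = 0.0136) and for Fcgr2b (-0.90, adjusted p = 0.0237). Behind the first were log2 fold changes of -0.47 in M-MDSC and 1.12 in PMN-MDSC, and behind the second -0.84 in M-MDSC and 0.06 in PMN-MDSC. Both calls were lost within batch 1 and without the closely matched libraries. That of Fcgr2b was also lost without adult M-MDSC replicate 3 or replicate 28. Of all genes tested, 18.1% were called for this difference. In the 18 combinations of a gene and a group of at least 4 libraries, no library stood apart from the rest of its group by Dixon's criterion, for which about 1 flag in 20 groups comes by chance.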

How the results depend on the processing

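The higher Fcgr3 and Fcer1g in newborn PMN-MDSC, and the higher Fcgr1 and Fcgr2b in adult M-MDSC than in adult PMN-MDSC, kept their direction and their call under every alternative run. So did the higher Fcgr1 and lower Fcgr4 in newborn M-MDSC against newborn PMN-MDSC. Where other values changed, the cause was not tested, except that smaller sets of libraries or genes enter some fits by construction. Of the 6 members, 1 was called for age in M-MDSC within batch 1, within batch 2, in a fit of the compared groups only, with limma-voom, with no filter and without the closely matched libraries. For the difference of the age effects 0 were called within batch 1 and without the matched libraries, and 1 with limma-voom or upper-quartile scaling. Between the cell types of newborns 2 were called within batch 1 and with a batch coefficient per cell type. Summing Fcgr2b and Fcgr3 gave 0.0041 for age in M-MDSC, where Fcgr2b alone was lower and Fcgr3 alone higher. For M-MDSC against PMN-MDSC the sum gave -0.48 in newborns, where Fcgr2b alone was at 0.30, and 0.55 in adults, where Fcgr3 alone was at -0.00. In batch 1 the limit that a count of 0 allows is 0.990 to 3.29 CPM, beside Fcgr4 levels of 4.18 to 11.5 CPM in its newborn M-MDSC libraries.

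Counts over all genes moved more. For age in PMN-MDSC, 6171 genes were called, against 3760 within batch 1, 9548 in a fit of the compared groups and 3740 without the matched libraries. For age in M-MDSC 3910 were called, against 1267 in a fit of the compared groups and 2315 with limma-voom. For the difference of the age effects the 2344 genes became 408 within batch 1, 4254 within batch 2 and 968 without the matched libraries. Between the cell types of newborns 5437 became 3231 within batch 1, and in adults 3772 became 1368 within batch 1, 6457 within batch 2, 1820 with limma-voom and 2407 without the matched libraries. Upper-quartile scaling turned the PMN-MDSC split of 3514 higher and 2657 lower into 2756 higher and 3552 lower, and DESeq2 size factors, which shifted the median by -0.17, into 2982 and 3304. It turned the split of the age difference of 856 and 1488 into 1157 and 1134, and that between newborn cell types of 2414 and 3023 into 2934 and 2528.

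With each library left out in turn, genes called ran from 5459 to 7104 and members from 2 to 3 for age in PMN-MDSC, from 3450 to 4340 and 1 to 3 for age in M-MDSC, and from 2021 to 2905 and 1 to 4 for the age difference. Between the cell types they ran from 4777 to 6328 and 3 to 4 in newborns, and from 2250 to 5036 and 2 to 3 in adults. Replicate numbers were shared between groups in batch 1, and whether they pair the libraries is not settled. The 12 pairs with the same number had correlations of their deviations from -0.047 to 0.182 (median 0.050), and 2 of them were over 0.1. The 25 pairs with different numbers had -0.182 to 0.075 (median -0.014), with 0 over 0.1. Those over 0.1 were adult PMN-MDSC with adult M-MDSC, replicate 1 with 1 (0.176) and 3 with 3 (0.182). A replicate block called 6059, 3690, 2360, 5572 and 4082 genes and 2, 2, 2, 4 and 3 members in the 5 comparisons, in the order age in PMN-MDSC, age in M-MDSC, their difference, newborn cell types and adult cell types. Under it Fcer1g passed between adult cell types (0.81, edgeR, adjusted p = 0.0393), Fcgr4 did not (-1.75, edgeR, adjusted p = 0.0685), and Fcgr3 did not for age in M-MDSC (0.66, edgeR, adjusted p = 0.0521).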
